A study of Danio rerio with 17 samples.

Results

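Sorting zebrafish embryo cells by a mural reporter and by an endothelial reporter gave 35 genes, of 30220 in the table, that were at least 4-fold higher in the reporter-positive cells of both lines. The genes were chosen by the ratio of mean normalized reads, positive over negative, with a threshold of 4 in each line and a higher group mean of at least 100 normalized reads in each line. These ratios describe how the genes were chosen and carry no test. Of the 35 genes, 25 passed also without acta2 positive replicate 2, and for 22 of them no positive library overlapped a negative one in either line. The choice by ratio in the same libraries favors such separation. Of all tested genes, 15.1% in the acta2 line and 15.3% in the kdrl line were higher without overlap, each line taken alone. The 25 genes include smooth muscle myosin genes, an integrin, vasoactive receptors and the transcription factor genes ets1 and epas1a. The other 10, mostly digestive enzyme genes of the exocrine pancreas, passed in the acta2 line through that library.

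The mural line, Tg(acta2:egfp), expresses a green fluorescent protein from an acta2 promoter, acta2 being the gene of smooth muscle actin, and was sorted into 3 positive and 3 negative libraries at 4 days post fertilization. The endothelial line, Tg(kdrl:mcherry), expresses a red fluorescent protein from a kdrl promoter, kdrl being an endothelial receptor gene for VEGF, and was sorted into 3 positive and 3 negative libraries at 5 days post fertilization. Another line, Tg(acta2:mcherry);(foxc1b:egfp), sorted at 4 days into 2 positive and 3 negative libraries, took no part in choosing the genes. It shares the acta2 promoter with the mural line, and the labels do not give the colors of its gate. For both lines with the acta2 reporter the labels describe no fixation, and oligo-dT cDNA was amplified with REPLI-G before TruSeq adapters were added, whereas kdrl cells were fixed under the MARIS protocol and made into libraries with the TotalScript kit. Line, age, fixation and kit therefore cannot be told apart between the mural and the endothelial sort, and each sort effect was taken within its own line before the lines were compared. The labels are silent on whether the replicates are separate clutches; the p-values therefore reflect sample-to-sample spread that may be technical only.

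Mural cells, the smooth muscle cells and pericytes, wrap the endothelial tube of a vessel and contract through an actin and smooth muscle myosin apparatus under the control of vasoactive receptors. Endothelial cells line the vessel, are held together by VE-cadherin and claudins, and depend on VEGF receptor and Tie signaling. Both cell types sit on a shared basement membrane that they hold through integrins and focal adhesions, and both carry caveolae and receptors for circulating peptides and lipids. In bulk samples, fewer cells of a type and less RNA per cell cannot be told apart.

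Reads recovered from the normalized values came to between 20304807 and 33526582 per library in the 11 libraries with an acta2 reporter and between 10474235 and 40868765 in the 6 kdrl libraries. The targeted genes checked the sorts. acta2 was 183-fold higher in positive than in negative cells of the acta2 line and 1.38-fold in the kdrl line, where the groups overlapped. In the acta2/foxc1b line acta2 was 478-fold and foxc1b 4.56-fold higher in positive cells, both without overlap. The ratio of foxc1b was 0.37 in the acta2 line and 1.33 in the kdrl line, with overlap in both. kdrl was 43.2-fold higher in positive cells of its own line, and its level in the acta2 line was 334 ± 183 normalized reads in negative and 791 ± 116 in positive libraries (SD, n = 3 each), a ratio of 2.37 without overlap between the groups. The other 5 endothelial marker genes had lower ratios in the acta2 line, with cdh5 (VE-cadherin) at 0.907, pecam1 at 1.34, tie1 at 0.822, flt1 at 1.02 and cldn5b at 0.54, against 32.7, 127, 49, 31.3 and 23 in the kdrl line. Of the wider endothelial list, limma called 9 of 92 genes higher and 3 lower in acta2 positive cells (3.26% and 3.75% of all genes were). The median log2 effect of the list was 0.03. Of its 67 genes that reached 100 in the acta2 line, 3 were at least 4-fold higher and 6 at least 4-fold lower. In that line cav1 (9.33), aplnra (6.42), ets1 (5.14) and cav2 (3.71) exceeded the ratio of kdrl. Conversely tagln, cnn1b and lmod1b, markers of differentiated smooth muscle, had ratios of 66.9, 60.1 and 37.2 in the acta2 line and of 1.03, 0.957 and 0.875 in the kdrl line. The smooth muscle marker myh11a departed from them. Its ratios were 34.7 in the acta2 line and 8.64 in the kdrl line, without overlap in either. Kdrl positive cells also carried leukocyte and epidermal transcripts: the summed leukocyte list of 64 genes made up 0.389% to 0.831% of their reads and 0.134% to 0.211% in kdrl negative cells, and the 64 epidermal genes made up 0.919% to 2.96% against 0.495% to 0.972%. Acta2/foxc1b negative replicate 2 stood apart from its group, with 7.82% of its reads from the epidermal list and 6.25% from a list of 73 liver, gut and pancreas genes, so values of that line are given with and without it.

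The sort effects of the lines correlated weakly across genes. Among genes that reached 100 in both lines, those at least 4-fold higher in either line were more often so in the other than all were. In the acta2 line 445 genes were at least 4-fold higher in positive cells, and in the kdrl line 666 were, so that the 35 shared genes were 7.87% of the first set and 5.26% of the second. Of tested genes with a higher mean of at least 100, 3.29% passed 4-fold in the acta2 line and 4.37% in the kdrl line. Among the 12107 genes whose higher group mean reached 100 in both lines, 2.84% were at least 4-fold higher in the kdrl line, compared with 12.9% of those at least 4-fold higher in the acta2 line. In the opposite reading, 2.25% of the 12107 genes were at least 4-fold higher in the acta2 line, compared with 10.2% of those at least 4-fold higher in the kdrl line. Across 20287 genes tested in both lines, the log2 sort effects correlated at a Pearson r of 0.0905 and a Spearman rho of 0.0339, a description across genes, which are not independent replicates. A further 108 genes were at least 4-fold lower in positive cells of both lines, of 805 in the acta2 and 530 in the kdrl line. Another 23 were at least 4-fold higher in the acta2 line and at least 4-fold lower in the kdrl line, and 36 had the opposite arrangement.

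**Figure D1:**
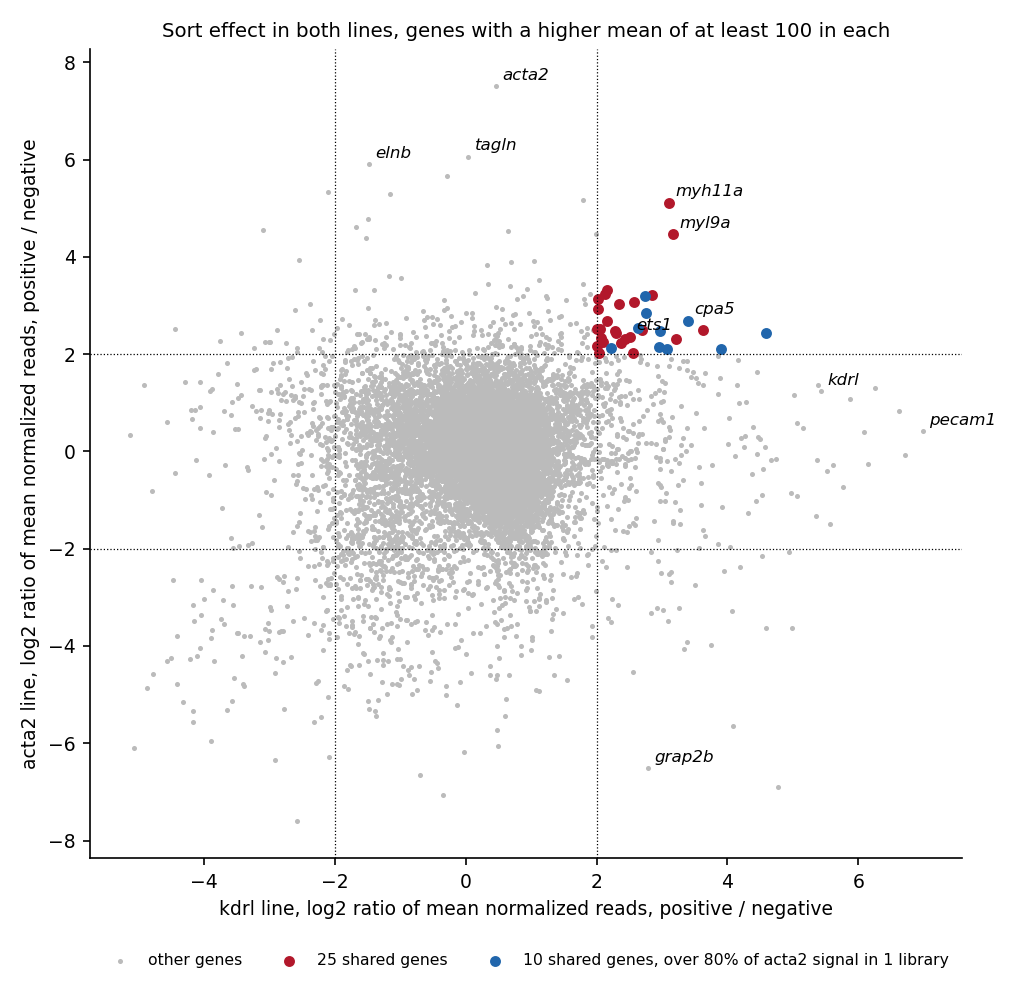
Log2 ratio of mean normalized reads, positive over negative, in the kdrl line (horizontal) and in the acta2 line (vertical) for the 12107 genes with a higher group mean of at least 100 in both lines; each point is a gene and dotted lines mark 4-fold. The 35 shared genes fill the upper right corner, where myh11a and myl9a lie above the other 33 on the vertical axis but not furthest out on the horizontal one. acta2, tagln and elnb rise along the vertical axis and kdrl and pecam1 along the horizontal one.

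The smooth muscle myosin genes had the highest ratios of the shared genes in the acta2 line. myh11a encodes the heavy chain of smooth muscle myosin. For it the acta2 negative libraries held 737, 302 and 356 and the positive ones 25603, 12752 and 10100, and the kdrl negative libraries held 218, 365 and 295 and the positive ones 2394, 2766 and 2430. Every positive library lay above every negative one of its line, with ratios of 34.7 in the acta2 line and 8.64 in the kdrl line. For myl9a, which encodes a regulatory myosin light chain, the acta2 negative libraries held 511, 531 and 610 and the positive ones 18249, 8011 and 10396, and the kdrl negative libraries held 235, 586 and 258 and the positive ones 2810, 6114 and 772. The groups were again separate, kdrl positive replicate 3 was the lowest of the positive libraries, and the ratios were 22.2 in the acta2 line and 8.98 in the kdrl line. csrp1a, a LIM-domain gene of the actin cytoskeleton in smooth muscle, was also in the contractile list. For csrp1a the acta2 negative libraries held 417, 447 and 376 and the positive ones 3112, 1843 and 2055, and the kdrl negative libraries held 188, 558 and 468 and the positive ones 2036, 3840 and 1969. Positive and negative libraries did not overlap in either line, at ratios of 5.66 and 6.46. tagln2, an actin-binding relative of transgelin, held 680, 905 and 944 reads in acta2 negative and 5853, 3870 and 4776 in positive libraries, and 1181, 3438 and 2844 in kdrl negative and 10621, 12832 and 7510 in positive ones. Positive and negative libraries were separate in both lines, with ratios of 5.73 and 4.15. myo1ca, an unconventional myosin that links membrane to actin, had ratios of 5.41 and 4.9 with no overlap in either line.

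Genes of cell adhesion and of the plasma membrane formed a second group. itgb1b encodes an integrin beta 1 subunit, the common partner of matrix-binding integrins. For itgb1b the acta2 negative libraries held 905, 401 and 315 and the positive ones 8696, 4001 and 2681, and the kdrl negative libraries held 257, 411 and 387 and the positive ones 1435, 2102 and 1092, which gave ratios of 9.48 and 4.39 with separate groups. parvab, an alpha-parvin that links integrins to actin at focal adhesions, had the highest kdrl ratio of the 25 genes. There its negative libraries held 69.3, 120 and 68.7 and its positive libraries 793, 1992 and 420 normalized reads, a ratio of 12.4, and in the acta2 line 429, 302 and 333 and 2796, 1602 and 1579, a ratio of 5.62. cav1, the main coat protein gene of caveolae, held 45.5, 79.3 and 60.8 and 310, 1076 and 345 normalized reads in acta2 negative and positive libraries and 48.8, 49.4 and 36.5 and 467, 309 and 191 in the kdrl ones. All positive libraries exceeded the negative ones, and acta2 positive replicate 2 carried 62.2% of the summed acta2 positive signal; without it the acta2 ratio fell from 9.33 to 5.29. mcamb, a cell adhesion gene of endothelium and pericytes in vertebrates, reached ratios of 4.94 and 9.28 without overlap. tspan4b, a tetraspanin, had ratios of 4.67 and 5.16, but its acta2 groups overlapped, with 3164, 1024 and 1578 in negative and 19996, 4531 and 2426 in positive libraries.

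Of the vasoactive list agtr1b, ednraa and s1pr5a were among the 35 genes, and aplnra and rapgef3 are described with them for their role in signaling. agtr1b encodes an angiotensin II receptor. Its acta2 libraries held 77.3, 66.8 and 67.5 (negative) and 1085, 679 and 355 (positive) normalized reads, without overlap, and its kdrl libraries 37.3, 24.7 and 11.9 and 164, 156 and 9.08. Kdrl positive replicate 3 thus lay below every kdrl negative library, and the kdrl ratio of 4.46 rested on the other 2 positive libraries. ednraa, an endothelin receptor gene that smooth muscle uses in vasoconstriction, showed the opposite balance. For ednraa the acta2 negative libraries held 337, 450 and 387 and the positive ones 1409, 1482 and 1914, and the kdrl negative libraries held 511, 853 and 598 and the positive ones 3954, 5823 and 1696. Both pairs of groups were separate, and the ratio was 4.09 in the acta2 line and 5.85 in the kdrl line. s1pr5a, a sphingosine-1-phosphate receptor gene, had ratios of 8.18 and 5.07, and aplnra, a receptor for apelin, of 6.42 and 4.49. rapgef3, which encodes a cyclic AMP-activated exchange factor for Rap, held 424, 267 and 393 normalized reads in acta2 positive and 347, 482 and 293 in kdrl positive libraries, and ratios of 4.76 and 4.29. In these last 3 genes no positive library overlapped a negative one of its line.

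Transcription factor and RNA-binding genes followed. ets1, an ETS factor with known targets in endothelium, was among the 7 genes that passed whichever library was left out. For ets1 the acta2 negative libraries held 132, 296 and 266 and the positive ones 1101, 1123 and 1343, and the kdrl negative libraries held 117, 191 and 188 and the positive ones 684, 854 and 1301, ratios of 5.14 and 5.73 with separate groups. epas1a, a hypoxia-inducible factor (HIF-2 alpha) gene, had ratios of 5.07 and 4.2, and its kdrl negative libraries ranged from 143 to 603 normalized reads. The paralogs rbpms2a and rbpms2b, RNA-binding protein genes known from visceral smooth muscle precursors, were both among the 35, at ratios of 7.6 and 4.04 for rbpms2a and 4.96 and 5.4 for rbpms2b. rbpms2a was the steadier of them in acta2 positive libraries, at 4871, 5381 and 6066 normalized reads, whereas rbpms2b ranged over 8158, 3770 and 2666. The remaining genes with no overlap in the acta2 line were cfd, which encodes complement factor D (5.7 and 4.01), dub (duboraya, a gene of left-right axis formation in zebrafish, 8.42 and 5.92), kiaa0040 (5.55 and 4.86), and the unnamed genes LOC108190717 (8.73 and 4.08), LOC110439915 (4.5 and 4.03) and si:dkey-163m14.2 (4.09 and 4.12). LOC110439915 overlapped between kdrl groups, where positive replicate 2 held 132 and negative replicate 3 held 154 normalized reads.

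The 10 genes that rest on 1 library in the acta2 line were of another kind. Trypsin (try), prss59.1 and prss59.2, chymotrypsinogen (ctrb1), carboxypeptidase cpa5 (also a mast cell marker in zebrafish), zgc:112160 (ctrb.3 in RefSeq, a chymotrypsinogen) and zgc:92041 (cela1.6 in RefSeq, an elastase) encode proteases, cyt1l encodes a type I cytokeratin of the embryonic enveloping layer, si:dkey-33c14.3 is annotated in RefSeq as a long noncoding RNA, and si:dkey-9l20.3 is unnamed. For ctrb1 the acta2 negative libraries held 227, 92.5 and 35.5 and the positive ones 6.26, 2060 and 3.15, and the kdrl negative libraries held 80, 12.4 and 730 and the positive ones 3179, 712 and 1194. Replicate 2 was the acta2 positive library that exceeded all others, and the kdrl groups overlapped. The same library carried 89.3% to 99.5% of the summed acta2 positive signal of these 10 genes, and without it their acta2 ratios ran from 0.0385 to 0.693, below 1 in all 10. In the kdrl line 8 of the 10 were higher in every positive than in any negative library, with ratios from 6.69 (zgc:112160) to 24.2 (si:dkey-33c14.3), while ctrb1 (6.19) and prss59.1 (4.64) overlapped. For cyt1l the kdrl libraries held 184, 132 and 416 (negative) and 3758, 1436 and 5748 (positive) normalized reads, without overlap. The liver, gut and pancreas list of 73 genes holds 6 of the 10, so its level is not independent of them. Its mean log2 level was 7.45 in acta2 positive replicate 2 against 4.06 and 4.21 in the other acta2 positive libraries and 5.71 to 6.03 in the negative ones. In the kdrl line the ranges overlapped, at 6.83 to 7.75 in positive and 5.84 to 7.33 in negative libraries. The mean log2 level of the epidermal list was 9.33 in the same acta2 library against 6.97 and 7.03 in the other positive ones. The part of such cells in the ratios of these genes was not tested. tspan4b and the 24 genes without overlap kept acta2 ratios of 4.25 to 38.4 without replicate 2.

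**Figure D2:**
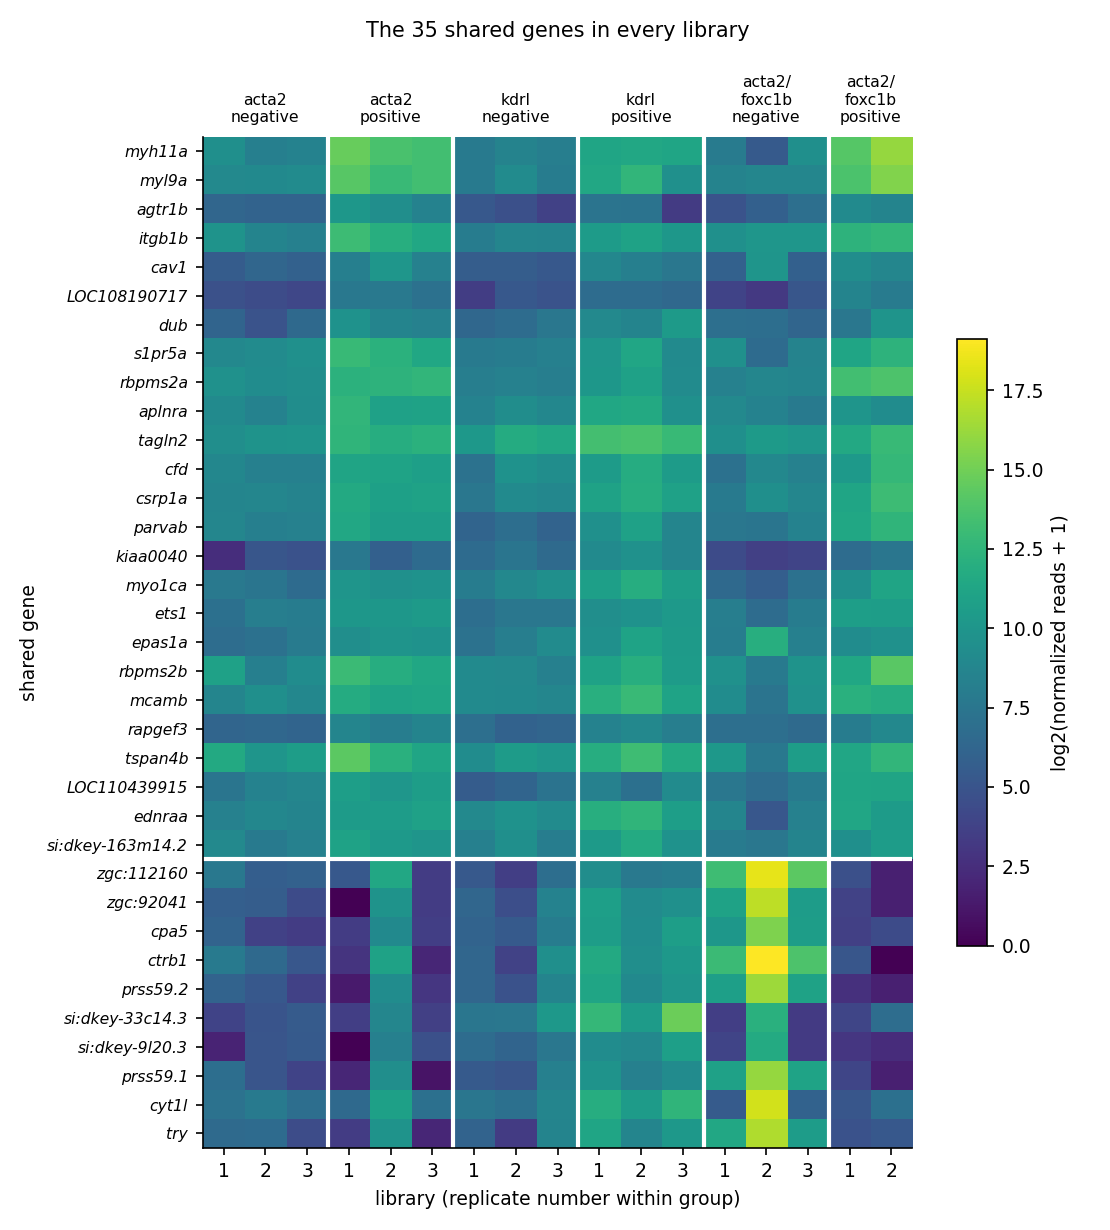
Level of the 35 shared genes, as log2(normalized reads + 1), in each of the 17 libraries; columns are libraries by group and replicate number, rows are genes ordered by their acta2 ratio, and the horizontal white line separates the 25 genes from the 10 that rest on acta2 positive replicate 2. In the lower block acta2 positive replicate 2 and acta2/foxc1b negative replicate 2 are brighter than the other libraries of their groups.

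Of the 35 shared genes, 24 did not overlap between positive and negative libraries of the acta2 line, where 15.1% of the tested genes were higher without overlap, and 31 did not in the kdrl line, where the background was 15.3%. Within each line on its own, limma called 1441 genes (7.0%) in the acta2 line and 1485 (5.96%) in the kdrl line, or 3359 with the replicate number as a block there. The ratio rule used these libraries, so nothing is read from those counts. Whether the sort effect of a gene differed between the lines was tested by limma as a difference of differences over the 12 libraries, on log2(value + 1), with a call at a Benjamini-Hochberg adjusted p under 0.05. Over 25490 genes, 1558 (6.11%) were called, with a median difference of -0.03 over all tested genes. The signed log2 effect was larger in the acta2 line for 714 (2.8% of those tested) and in the kdrl line for 844 (3.31%). A call toward 1 line can thus come from a rise there, a fall in the other line, or both. With the replicate number as a block in the kdrl line, whose libraries deviate together by number, the counts were 822 and 1031. None of the 35 shared genes was called by limma, none by edgeR, 1 with the replicate number as a block in both lines and 1 of 33 tested by DESeq2, and 3 had an unadjusted p under 0.05 in limma. The closest was myh11a, whose effect was 1.98 log2 units larger in the acta2 line (SE 0.56, 95% interval 0.78 to 3.17, limma adjusted p = 0.0503). The 25 genes had differences from -0.93 (parvab) to 1.98 (myh11a) with a median of 0.32, and the 10 genes from -5.13 (ctrb1) to -2.61 (si:dkey-9l20.3). For the 10 genes these sizes depended on the method. Their limma SE ran from 1.22 to 2.56, and their median difference was -3.81 in limma, -0.52 in edgeR and -0.58 in DESeq2. Since a ratio of at least 4 in both lines was required in the same libraries, the choice itself makes a call of the difference less likely. These values do not show equal effects: the 95% interval of the difference lay within -2 to 2 log2 units for 11 of the 25 genes and within -1 to 1 for 0. For ets1 the interval was -1.2 to 1.08, so a difference of up to about 2-fold in either direction is within the error.

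Close relatives of the shared genes, which were chosen for display after the 35 genes were known, did not all share their ratios. tagln, the relative of tagln2, was 66.9-fold higher in acta2 positive cells and 1.03-fold in kdrl positive cells. The angiotensin receptor gene agtr1a, at 3.05 ± 0.731 and 81.7 ± 21.7 normalized reads in acta2 negative and positive libraries (SD, n = 3 each), had a ratio of 26.8 there and 0.825 in the kdrl line, and its difference of 5.39 (SE 1.46, adjusted p = 0.0401) was called by limma. That call was lost in 13 of 20 other settings, 10 of which left out 1 library. For integrin itgb1a the ratios were 2.54 and 0.365, with a limma difference of 2.79 (SE 0.50, adjusted p = 0.004). The apelin receptor gene aplnrb went the other way, at 0.443 in the acta2 line and 5.01 in the kdrl line, with a limma difference of -3.18 (SE 0.79, adjusted p = 0.0262), a call lost in 5 of 20 other settings. s1pr5b, at 7.28, 7 and 1.69 normalized reads in acta2 negative and none in acta2 positive libraries, had a kdrl ratio of 5.27 and was called toward the kdrl line (limma adjusted p = 0.0119), with a fitted size that depends on the pseudocount. Without a block, a further 6 relatives were not called by limma. Their ratios were 5.32 and 1.27 for myl9b, 4.27 and 1.04 for parvaa, 4.93 and 0.383 for csrp1b, 2.22 and 0.462 for mcama, 0.631 and 3.61 for ets2 and 2.19 and 5.43 for epas1b, in the acta2 and kdrl lines in that order. With the kdrl block the limma adjusted p was 0.0211 for myl9b (0.0641 without it) and 0.0336 for parvaa (0.0592), so both were then called. myo1cb was higher without overlap in both lines, as its partner was, at 2.5 and 2.13. Also not called were myh11b (2.28 and 1.03), tagln3b (0.253 and 0.363), s1pr1 (1.24 and 0.941), rapgef4 (3.1 and 0.793), tspan4a (0.719 and 1) and ednrab (0.434 and 0.596). cav2, which shares caveolae with cav1, just missed the threshold in the acta2 line at 3.71 and reached 6.43 in the kdrl line. Reads that fit both copies of a duplicated gene could be shared between such paralogs by the counting, and the tandem duplicates prss59.1 and prss59.2 are uncertain for that reason.

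The acta2/foxc1b line, whose libraries did not choose the genes, divided the 35 genes along the same split. Its positive libraries also carried muscle transcripts. Skeletal muscle genes made up 1.91% to 3.35% of reads (0.177% to 0.204% in negative ones, 0.182% to 0.249% in acta2 positive ones). Cardiac muscle genes made up 0.449% to 0.775% (0.0236% to 0.0658% in negative ones). The part of such cells in the ratios of this line was not tested. In this line 21 of the 35 were at least 4-fold higher in positive cells, compared with 7.47% of tested genes with a higher mean of at least 100, and 23 were higher without overlap, compared with 14.8%. All 21 and all 23 belonged to the group of 25, and 8 of the other 10 were lower without overlap, as were 14.8% of tested genes. Of the 351 genes at least 4-fold higher in the acta2 line and under 2-fold in the kdrl line, 168 passed 4-fold here. Of the 512 genes of the reverse class 9 did, both counts with no minimum mean. With its acta2 promoter, this line bears on the mural side of the choice and not on the endothelial side. For myh11a the negative libraries held 246, 42.3 and 739 and the positive libraries 17169 and 68995 normalized reads, a ratio of 126. myl9a held 377, 428 and 437 against 13381 and 46063, a ratio of 71.8, and rbpms2a 334, 447 and 385 against 10417 and 14160, a ratio of 31.6. ets1 held 282, 109 and 259 against 1678 and 1566, a ratio of 7.49, and parvab reached 18.4. Of the 25 genes, aplnra (2.25), rapgef3 (3.22), cav1 (1.44) and epas1a (0.48) stayed under 4-fold. For cav1 and epas1a negative replicate 2 held 1023 and 3952 normalized reads, far above the other negative libraries, and without it the ratios were 9.4 and 2.45.

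Limma on these 5 libraries alone called 6 genes in all (0.0271%), none of them among the 35. Of the 25 genes, 22 were higher with an unadjusted limma p under 0.05, a level that 2532 of 22116 genes reached in either direction. None of the 35 was called by edgeR. DESeq2 called 16 of the 25 higher. Of the other 10 it gave an adjusted p to 1, which was called lower. Over all 29165 genes fitted, DESeq2 called 664 higher and 1069 lower. With the spread estimated from all 11 libraries with an acta2 reporter, which include the acta2 libraries that chose the genes, limma called 17 of the 35 higher, against 2.58% of all genes tested, and 6 lower, against 1.81%. The spread in that fit is not independent of the choice, so these calls are not a separate test of the genes. myh11a then had a log2 effect of 7.43 (SE 0.98, limma adjusted p = 0.00235) and rbpms2a one of 4.97 (SE 0.37, adjusted p = 7.62e-05). The 6 genes called lower all encode proteases. ctrb1 held 8292, 568665 and 14245 normalized reads in negative and 33.9 and 0 in positive libraries, and the 10 genes had ratios from 8.59e-05 to 0.0427 in this line. Without negative replicate 2, 8 of the 10 were still lower than 1 and without overlap, cyt1l stood at 1.56 with overlap, and si:dkey-33c14.3 stood at 6.56. Without that library limma over the remaining 10 libraries called 17 of the 25 higher, against 4.3% of genes, and 6 of the 10 lower, against 5.07%. The spread of that fit again includes the acta2 libraries that chose the genes. Also without negative replicate 2, 20 of the 24 genes without overlap in the acta2 line were at least 4-fold higher, against 7.71% of genes that reached 100. The acta2/foxc1b ratio of si:dkey-163m14.2 then fell from 4.05 to 3.49. That of tspan4b, which is not among the 24, fell from 4.39 to 3.14.

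**Figure D3:**
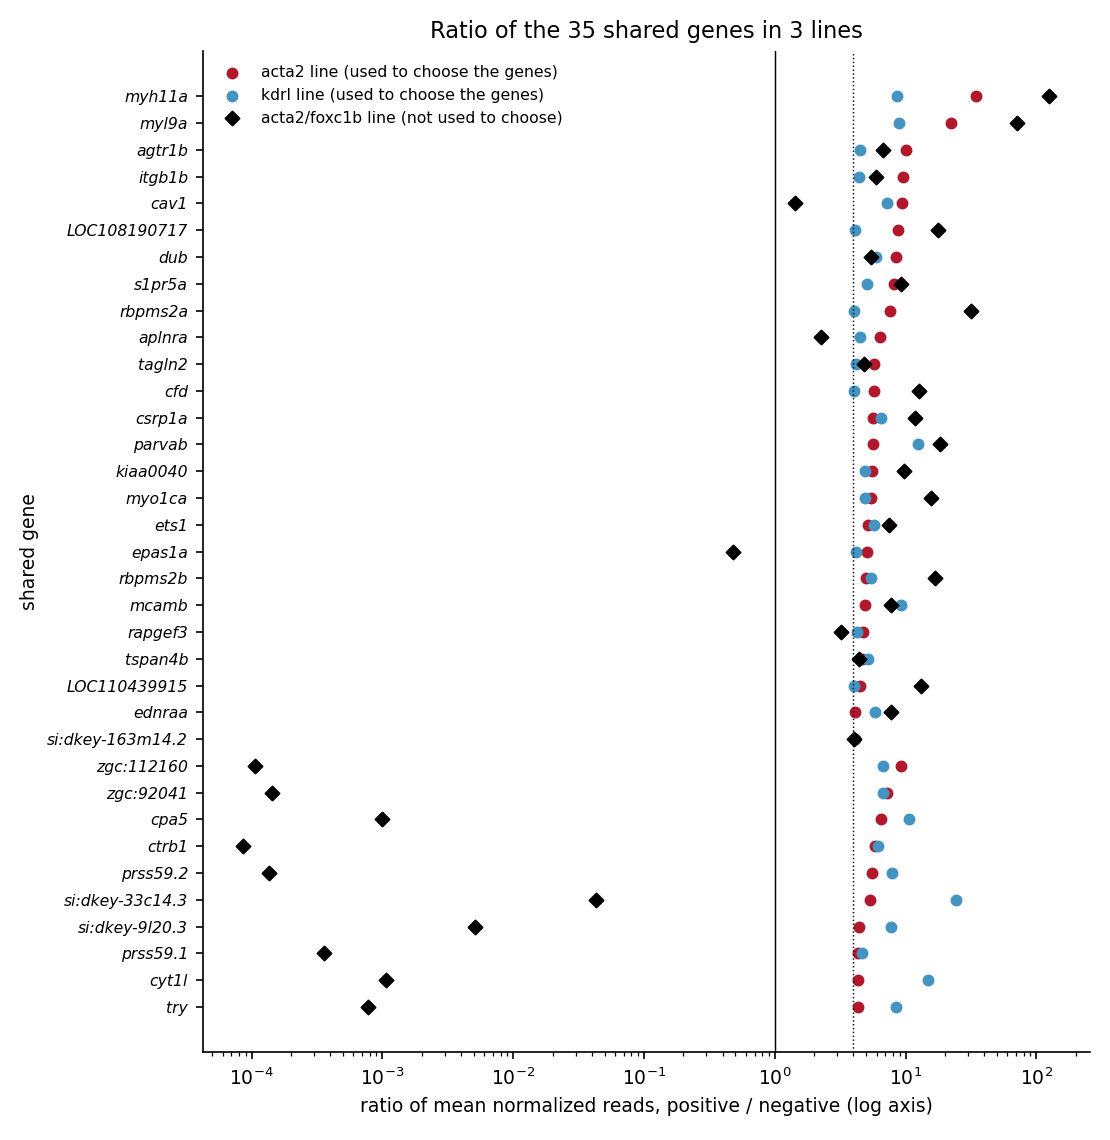
Ratio of mean normalized reads, positive over negative, for each of the 35 shared genes in the acta2 line and the kdrl line, which chose the genes, and in the acta2/foxc1b line, which did not; the axis is logarithmic, the solid line marks equal levels and the dotted line 4-fold. The upper 25 genes include 21 at least 4-fold higher in the acta2/foxc1b line, and the lower 10 lie between 8.59e-05 and 0.0427 there.

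Membership depended on single libraries. Leaving out each of the 12 libraries in turn gave between 25 and 47 genes, and 7 of the 35 were kept in every case, namely myh11a, myl9a, csrp1a, parvab, cav1, mcamb and ets1. Kdrl positive replicate 2, the highest kdrl positive library for 19 of the 25 genes, was the library whose removal cost most: 15 of the 35 genes fell under the threshold without it, and 9 others entered. Just inside the threshold in the kdrl line were cfd (4.01), LOC110439915 (4.03), rbpms2a (4.04) and LOC108190717 (4.08). Just outside lay gata5 (3.98 and 6.35 in the acta2 and kdrl lines) and gata6 (3.82 and 3.97), zinc finger transcription factor genes of heart and smooth muscle, with tes (22.2 and 3.97), a focal adhesion gene, itga4 (5.68 and 3.87), an integrin alpha subunit gene, and clic2 (3.93 and 14.5). With a threshold of 3-fold the set held 89 genes, and with 8-fold only myh11a and myl9a.

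Genes particular to the mural sort included elastic fiber and contractile genes. At least 4-fold higher in acta2 positive cells and under 2-fold in kdrl positive cells were 351 genes. Limma called 160 of them as larger in the acta2 line (2.8% of all tested genes were). The choice by ratios in the same libraries favors that count. In the acta2/foxc1b line, which took no part in that choice, 168 of the 351 were at least 4-fold higher, with no minimum mean set in that line. Of tested genes with a higher mean of at least 100 there, 7.47% were. These shares rest on unlike filters and are only roughly comparable. elnb, an elastin gene, had the largest difference toward the acta2 line among the named genes. Its level was 45.4 ± 27.4 normalized reads in acta2 negative and 2721 ± 1804 in acta2 positive cells, and 127 ± 17.8 and 45.3 ± 41 in kdrl negative and positive cells (SD, n = 3 each), a difference of 7.64 (SE 0.97, adjusted p = 0.000359) in limma. acta2 itself differed by 7.44 (SE 0.84, adjusted p = 0.000175). fbln5, a fibulin of elastic fibers, rose from 1417 ± 251 to 21636 ± 3041 in the acta2 line and stood at 877 ± 297 and 150 ± 61.4 in the kdrl line (SD, n = 3 each), a difference of 6.51 (SE 0.50, adjusted p = 1.65e-05). The groups were separate in both lines for elnb and fbln5, in opposite directions. The matrix crosslinking enzyme gene loxa (ratios of 7.5 and 0.164), tagln, cnn1b, smtna (62 and 0.906) and the LIM-domain gene fhl2a (27.6 and 0.355) were called in the same direction by limma. So were gucy1a3, a subunit of the nitric oxide receptor guanylate cyclase (24.5 and 0.314), the protease gene adamts15a (5.42 and 0.0924), and fbp2, a gluconeogenic enzyme gene (36.2 and 0.63). ren, the renin gene of mural cells of the kidney in vertebrates, stood at 5.53 ± 6.87 and 107 ± 51.5 normalized reads in acta2 negative and positive cells, and was called with an adjusted p of 0.0465 by limma, a call lost in 12 of 20 other settings. hpdb, aox5 and ntd5 completed the 15 genes with the largest differences; hpdb, which encodes an enzyme of tyrosine breakdown, held 39785 ± 11736 and 229364 ± 45442 normalized reads in acta2 negative and positive cells. The pericyte genes pdgfrb and notch3 had ratios of 3.57 and 3.75 in the acta2 line, under the 4-fold threshold, and 0.491 and 0.468 in the kdrl line. Both differences were called by limma, at 2.81 (SE 0.70, adjusted p = 0.0278) and 3.02 (SE 0.40, adjusted p = 0.000477). The call of pdgfrb was lost in 7 of 20 other settings. The other pericyte markers, kcnj8, abcc9 and ndufa4l2a, were not among the genes called.

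Genes particular to the endothelial sort included endothelial and blood cell genes. At least 4-fold higher in kdrl positive cells and under 2-fold in acta2 positive cells were 512 genes. Limma called 281 of them as larger in the kdrl line (3.31% of all tested genes were), again in the libraries whose ratios chose them. pecam1, an adhesion gene of endothelial junctions, rose from 56.1 ± 9.56 to 7111 ± 5041 normalized reads in the kdrl line and stood at 130 ± 26.1 and 174 ± 36.9 in the acta2 line (SD, n = 3 each), a difference of -6.27 (SE 0.67, adjusted p = 0.000156) in limma. sox18, an endothelial transcription factor gene, had ratios of 47.5 in the kdrl and 0.354 in the acta2 line, lyve1b, a lymphatic and venous endothelial gene, 43.7 and 0.319, lmo2, a blood and vessel transcription cofactor gene, 18.4 and 0.193, and esm1, a tip cell gene, 31.7 and 0.0807. All 4 differences were called by limma, that of esm1 with the call lost in 7 of 20 other settings. Leukocyte genes were among the largest differences. The signaling adaptor gene grap2b fell from 282 ± 229 to 3.1 ± 5.37 in the acta2 line and rose from 192 ± 148 to 1322 ± 952 in the kdrl line (SD, n = 3 each), a difference of -9.53 (SE 1.31, adjusted p = 0.000591) in limma. ikzf1, a lymphoid transcription factor gene, differed by -8.01 (SE 1.15, adjusted p = 0.000814), ccr9a, a chemokine receptor gene of thymus-homing cells, by -7.86 (SE 0.99, adjusted p = 0.00035), and lyz, the neutrophil lysozyme gene, by -7.57 (SE 1.54, adjusted p = 0.00868). rgs13, grap2a, blf, lcp1, coro1a, wipf1a and dock2 filled the rest of the 15 largest, with kdrl ratios between 9.55 and 23. By size of the difference grap2b, ikzf1, rgs13, ccr9a, grap2a and esm1 led the 36 genes that were at least 4-fold higher in the kdrl line and at least 4-fold lower in the acta2 line, of which 34 were called by limma; all 23 genes of the opposite arrangement were called. The ratios that chose these genes come from the same libraries, so nothing is read from those counts. The leukocyte list had a higher share of reads in kdrl positive than in kdrl negative cells, as given above, and its part in these differences was not tested.

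Over the gene lists, the median difference was above 0 for matrix, contractile and mesenchymal genes. It was below 0 for endothelial, leukocyte and cell cycle genes, and also for epidermal (-2.79), lens (-2.7) and erythroid and thrombocyte genes (-2.31). A median below 0 can come from a rise in kdrl positive cells or a fall in acta2 positive cells. Lens genes had median log2 effects below 0 in both lines, at -4.58 in the acta2 and -1.4 in the kdrl line. For scale, of all genes tested, 2.8% were called toward the acta2 and 3.31% toward the kdrl line. Of 81 fibrillar and elastic matrix genes, limma called 40 toward the acta2 line and 0 toward the kdrl line. The median difference of that list was 2.43 log2 units, against -0.03 over all genes. Of 53 smooth muscle contractile genes 19 were called toward the acta2 line and 0 toward the kdrl line (median 2.07); tpm4b, a tropomyosin gene, had ratios of 20.9 and 0.347. The shared genes of that list were myh11a, myl9a and csrp1a. Cartilage, bone, tendon and fibroblast genes gave 19 and 3 calls of 58 (median 2.06), among them tnmd, a tendon gene (3.55 and 0.0799), and hapln1a, a proteoglycan link protein gene (2.23 and 0.0924). Head mesenchyme and neural crest genes gave 16 and 1 of 56 (median 1.33), with the transcription factor genes twist2 (2.35 and 0.0662), alx4a (3.25 and 0.108) and prrx1a (2.07 and 0.149). Within the lines, 21 of 58 cartilage, bone, tendon and fibroblast genes were called lower in kdrl positive cells by limma, against 2.79% of all genes, and 7 of 57 higher in acta2 positive cells, against 3.26%.

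Signaling lists were split. Of all genes tested, 2.8% were called toward the acta2 and 3.31% toward the kdrl line. PDGF, VEGF, angiopoietin and apelin signaling genes gave 6 calls toward the acta2 and 13 toward the kdrl line of 43 (median -0.48). The lists that follow in this paragraph gave few calls toward the kdrl line. Pericyte and mural genes gave 12 calls toward the acta2 and 1 toward the kdrl line of 53 (median 0.71), led by cd248a, the endosialin gene (4.73 and 0.119), and pdgfra (3.45 and 0.221). Vasoactive receptor and signaling genes gave 11 and 4 of 90 (median 0.26). Within each line that list had many members higher in positive cells, 19 called in the acta2 line and 15 in the kdrl line, against 3.26% and 3.17% of all genes. The cyclic GMP genes pde5ab (6.63 and 0.269) and prkg1b (6.25 and 0.428) and the sphingosine-1-phosphate receptor gene s1pr3a (12 and 0.38) were called toward the acta2 line. Of the integrin and focal adhesion genes, 25 of 58 were called higher in acta2 positive cells and 9 of 60 in kdrl positive cells, and the difference called 10 toward the acta2 and 3 toward the kdrl line of 60. Wnt pathway genes gave 14 and 0 of 75 (median 0.78), with the secreted antagonist genes sfrp2 (1.8 and 0.0564) and sfrp1b (8.13 and 0.191). TGF-beta and BMP genes gave 13 and 2 of 76 (median 0.94), with ltbp3 (3.22 and 0.54), which encodes a binding protein of latent TGF-beta. Within the acta2 line, limma called 6 of 73 Wnt genes higher and 2 lower, and 5 of 72 TGF-beta and BMP genes higher and 0 lower. Within the kdrl line it called 1 of 75 Wnt genes higher and 10 lower, and 5 of 76 TGF-beta and BMP genes higher and 9 lower. Of all genes, 3.26% and 3.75% were called higher and lower in the acta2 line, and 3.17% and 2.79% in the kdrl line.

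Toward the endothelial sort, 48 of 98 endothelial genes were called and 0 toward the mural one (median -2.49), where 3.31% and 2.8% of all genes were. They included mrc1a, a scavenger receptor gene (0.514 and 31.6), tmem88a (0.401 and 40.8) and the ETS factor gene etv2 (0.84 and 70.8). The shared genes of this list were cav1, aplnra and ets1. Leukocyte genes gave 21 of 64 toward the kdrl line and 0 toward the acta2 line (median -2.2), with rac2, a GTPase gene of neutrophils (0.107 and 7.62), and srgn, the serglycin gene (1.06 and 19.2). Cell cycle genes gave 21 of 63 toward the kdrl line (median -1.58), with ratios of 0.13 and 2.19 for bub3 and 0.122 and 2.18 for aurkb, both mitotic genes. Within the lines, limma called 0 of 63 cell cycle genes higher in kdrl positive cells and 9 of 63 lower in acta2 positive cells (3.17% and 3.75% of all genes were). Notch pathway genes gave 7 of 46 toward the kdrl and 1 toward the acta2 line, among them the ligand gene jag2b (0.39 and 6.06) and mfng, which encodes a glycosyltransferase of Notch (0.356 and 9.66). Within the kdrl line, limma called 3 of 46 Notch genes higher and 9 lower in positive cells (3.17% and 2.79% of all genes were). Within the acta2 line it called 3 of 44 higher and 11 lower (3.26% and 3.75% of all genes). In all of these genes the first ratio is that of the acta2 line and the second that of the kdrl line.

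**Figure D4:**
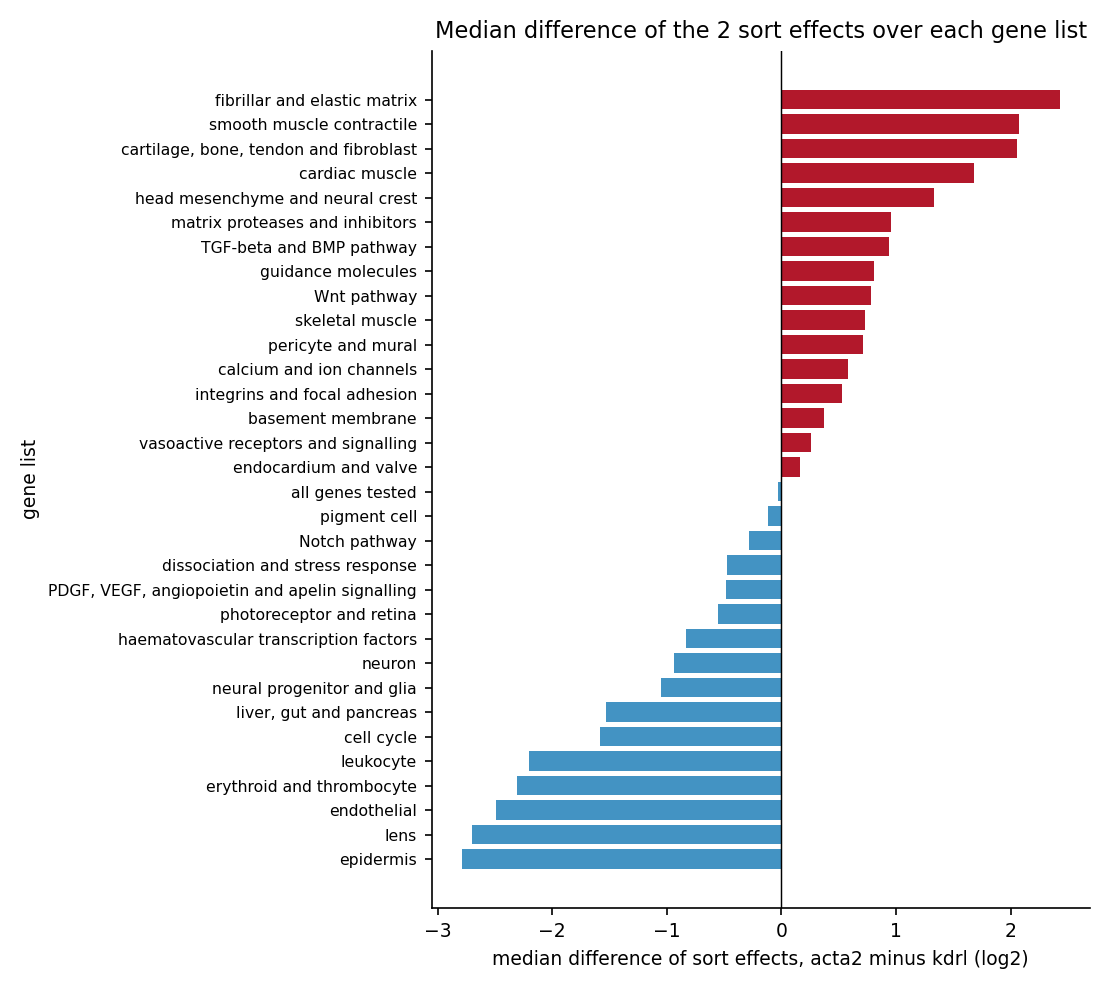
Median difference of the sort effects, acta2 line minus kdrl line, on the log2 scale, over each gene list and over all genes tested. Bars to the right mark a larger signed effect in the mural sort and bars to the left in the endothelial sort. Either can come from lower levels in the positive cells of the other line. Fibrillar and elastic matrix reached 2.43 and smooth muscle contractile genes 2.07, endothelial genes lay at -2.49, epidermal genes lowest at -2.79, and all genes at -0.03.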

How the data were processed

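RNA was extracted with TRIzol from cells sorted by fluorescence, per the labels. The submitters' processing notes name bcl2fastq 2.14, CASAVA 1.8.2, featureCounts 1.5.2, DESeq2 1.20.0 and build GRCz11; the aligner is not given in the sources used here, nor is the annotation. The authors deposited, for 30220 genes in 17 libraries, a signal value called normalized reads here; as the values themselves show, it is a read count divided by 1 factor per library. The 11 libraries with an acta2 reporter and the 6 kdrl libraries were scaled apart, so levels set side by side across those sets are approximate. All values (100%) gave whole reads within 0.1 read. The authors' deposited log2 fold changes, p-values and a score column (the test statistic) were not used.

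The table holds normalized values, so the test was limma on log2(value + 1) with a trend and not a count model. It covered genes that reached 10 in 3 or more libraries (2 in the acta2/foxc1b line) and was two-sided, with Benjamini-Hochberg adjustment over all tested genes. Fold changes on this scale understate those of low genes. All 35 shared genes passed the filter in each fit on all libraries. Whole reads gave added edgeR and DESeq2 fits. Same-numbered kdrl libraries deviated together (r = 0.475, 0.128 and 0.422), and the number was used as a block there; in the acta2 line r was 0.00968, -0.0225 and -0.0137. The kdrl line alone gave 1485 calls, and 3359 with that block. The genes, the gene lists (31) and the tests were chosen with earlier results of these data known. Named genes are every shared gene, the 15 called genes with the largest difference in each direction with a gene name, a higher mean of at least 100 and no overlap, up to 4 called members of a list, the reporter genes, and 6 genes of opposite effect. List symbols were matched directly or through RefSeq synonyms (assembly GRCz12tu). No sequences or coordinates are printed. Reads without molecular identifiers are not independent molecules. Simulated counts were used to test the fits. The fits ran in R 4.3.3, with DESeq2 1.42.0, limma 3.58.1 and edgeR 4.0.16.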

Additional observations from a re-analysis of the deposited data

Results flagged for a closer look

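The sort effect, positive minus negative, differed between the acta2 and the kdrl line in 1558 genes by limma's test of the difference, and the genes named in the text that were among them are given here with their difference in log2 units, acta2 line minus kdrl line. The difference is signed, so a gene listed as larger in the acta2 line may be lower in kdrl positive cells, and the reverse. Larger in the acta2 line by over 6 were elnb (7.64), acta2 (7.44), aox5 (7.10), hpdb (6.87), fhl2a (6.69), fbp2 (6.64), fbln5 (6.51), tagln (6.46), loxa (6.37), gucy1a3 (6.10) and ntd5 (6.03). Those between 5 and 6 were adamts15a (5.95), ren (5.95), cnn1b (5.92), smtna (5.90), tpm4b (5.78), lmod1b (5.60), cd248a (5.45), agtr1a (5.39), tnmd (5.34), sfrp1b (5.17), gch2 (5.17), twist2 (5.08) and alx4a (5.06). Those under 5 were sfrp2 (4.93), s1pr3a (4.86), pde5ab (4.72), acana (4.67), spon2b (4.65), myl7 (4.63), hapln1a (4.54), fap (4.29), pdgfra (4.06), prkg1b (3.92), prrx1a (3.86), vmhc (3.47), notch3 (3.02), pdgfrb (2.81), itgb1a (2.79) and ltbp3 (2.65). Larger in the kdrl line by over 7 were grap2b (-9.53), ikzf1 (-8.01), rgs13 (-7.89), ccr9a (-7.86), lyz (-7.57), grap2a (-7.26), esm1 (-7.20), lyve1b (-7.13) and blf (-7.07). Those between 6 and 7 were lcp1 (-6.92), sox18 (-6.75), coro1a (-6.71), wipf1a (-6.68), lmo2 (-6.64), dock2 (-6.62), rac2 (-6.54), tmem88a (-6.53), etv2 (-6.34), pecam1 (-6.27), hbbe1.1 (-6.20) and mrc1a (-6.11). Those under 6 in size were cldn5b (-5.56), tie1 (-5.50), mfng (-5.14), flt1 (-4.82), cdh5 (-4.53), ptprc (-4.33), srgn (-4.30), bub3 (-4.19), aurkb (-4.15), kdrl (-3.89), jag2b (-3.68), epcam (-3.63), aplnrb (-3.18) and cdh1 (-3.16). The fitted difference of s1pr5b was -4.76, with no read in acta2 positive libraries, and its size depends on the pseudocount. Line, age, fixation and kit move with the line and cannot be told apart from it. No group held 4 or more libraries, so no single library could be tested as standing apart within its group.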

How the results depend on the processing

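The count of genes at least 4-fold higher in both lines was 35, and it was 89 with a threshold of 3, 2 with 8, 22 with medians in place of means (14 of them shared with the 35), 22 when no library was allowed to overlap, and 25 to 47 when each library was left out in turn. Without acta2 positive replicate 2 there were 34 genes, of which 25 were of the 35. The difference of sort effects had 1558 calls; DESeq2 made 3082, a fit in which all 17 libraries share the spread 515, and leaving out 1 library gave 943 to 1791, the lowest counts without acta2 negative replicate 2 (943), kdrl negative replicate 1 (968) and kdrl negative replicate 2 (1013). The acta2 line alone had 1441 calls, 2939 with DESeq2 and 280 to 1358 with 1 library left out, at 773, 280 and 385 when negative library 1, 2 or 3 was dropped and 616 when positive replicate 3 was. The kdrl line had 1485, 3093 with DESeq2, 3359 with the replicate number as a block, and 528 to 1467 with 1 library left out, at 528 and 576 when negative library 1 or 2 was dropped and 868 when positive library 1 was. The acta2/foxc1b line had 6, 12 with a pseudocount of 5, 11 with no filter, 94 after quantile normalization, 0 with edgeR, 1733 with DESeq2, 280 with the replicate block, 971 when 11 libraries shared the spread and 2032 when negative replicate 2 was also left out (an alternative chosen after seeing the data), and 0 to 774 with 1 library left out, 774 without negative replicate 2 and 0 without negative replicate 1 or either positive library. In that line the replicate numbers, with 2 pairs at r = 0.144 and 0.0559, do not pair the libraries. No result changed direction in a call. Of 135 called genes followed through 20 settings, 100 kept their call in each setting that tested them. The cause of these changes was not tested. With 2 or 3 libraries a group and a spread this wide, the 95% interval of the difference reached beyond 2-fold for each of the 35 genes.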

Other observations

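Genes of other tissues also differed between positive and negative cells or between the sorts. Erythroid and thrombocyte genes gave 13 calls toward the kdrl line of 35 tested and 0 toward the acta2 line by limma (3.31% and 2.8% of all genes were), and the embryonic globin gene hbbe1.1 stood at 1780 ± 1381 normalized reads in acta2 negative and 26.7 ± 13.8 in positive cells (SD, n = 3 each). In kdrl cells it stood at 1198 ± 802 and 1684 ± 1289. Lens genes had 40 of 51 members called lower in acta2 positive cells by limma (3.75% of all genes were), and photoreceptor and retina genes 28 of 54 there and 29 of 58 in kdrl positive cells (2.79% of all genes). The photoreceptor and retina genes were thus lower in both sorts, and the difference called 1 of 58 toward the acta2 and 0 toward the kdrl line. For lens genes it called 0 and 6 of 58. The pigment cell enzyme gene gch2 was 12.2-fold higher in acta2 positive cells and stood at 0.445 in the kdrl line. Its list as a whole did not lean, with 3 calls toward the acta2 and 1 toward the kdrl line of 37 and a median difference of -0.12. The cardiac myosin genes myl7 and vmhc had ratios of 23.5 and 3.23 in the acta2 line against 0.556 and 0.27 in the kdrl line. Epidermal genes gave 13 calls toward the kdrl and 1 toward the acta2 line of 64. Among them were the epithelial adhesion genes cdh1 (0.284 in the acta2 and 2.84 in the kdrl line) and epcam (0.254 and 1.96), whose calls were lost in 12 and 9 of 20 other settings.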
